A study of Mus musculus with 10 samples.

Results

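The genes described here make cholesterol, sense it and take it up: 28 genes picked by name, of 18869 gene identifiers in the table, with 20 enzymes along the pathway from acetyl-CoA to sterols and 8 genes of sensing, receptor turnover and intracellular sterol transport. All 28 had a row. In 24 of them the level was high enough for the test across all genes, which covered 8075 genes. The remaining 4, Mvk, Mvd, Idi1 and Fdft1, are described by their values and an exact test.

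The study compared livers of Nrf2Act-hep mice, labelled as having NRF2 activated specifically in the liver, with livers of wild-type (WT) mice. Both groups were C57BL/6 mice of 6 weeks, fed chow, and their livers were taken after a fast of 15 h. Each group had 5 libraries, numbered 6 to 10 for Nrf2Act-hep and 1 to 5 for WT. Titles carry an M or F letter, and the M libraries are Nrf2Act-hep 6, 7 and 8 and WT 1 and 2, while the F libraries are Nrf2Act-hep 9 and 10 and WT 3, 4 and 5. The allele, driver or agent that activated NRF2 is not given in the sources used here. Nothing in the labels says that every library is a different mouse, so the p-values refer to the spread among libraries, part of which could be technical.

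Cholesterol is built from acetyl-CoA by way of mevalonate, the isoprenoid farnesyl diphosphate, squalene and lanosterol, and lanosterol is then trimmed and rearranged by a chain of enzymes in the endoplasmic reticulum. When sterols in that membrane are low, the escort protein SCAP carries the membrane-bound transcription factor SREBP-2 to the Golgi, where it is cut and released to switch on the genes of the pathway. When sterols are high, INSIG proteins hold SCAP back. The liver is a main site of this synthesis and of the clearance of cholesterol from blood. NRF2 is a transcription factor best known for switching on genes of detoxification and redox defence.

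Libraries were made from 3′ tags (QuantSeq, in which a read marks a transcript's 3′ end and the count does not grow with transcript length), and levels are reads scaled to a common total per library (CPM) and then by TMM, a factor per library that sets most genes equal on average. Reads per library ran from 2167528 to 2806670 in Nrf2Act-hep and from 1267745 to 2287727 in WT. Nrf2Act-hep replicate 9 was the deepest, and its mean correlation with its own group over all tested genes, 0.958, lay within the range of the other 4 libraries, 0.951 to 0.962. Of 8 NRF2 target genes taken as a check of the label, 8 were higher in Nrf2Act-hep, among them the quinone reductase gene Nqo1 at 36.9 ± 13.3 CPM in Nrf2Act-hep and 3.35 ± 1.62 CPM in WT. Xist was at 0 in the M libraries and at 332 to 560 CPM in the F libraries. Ddx3y was at 101 to 117 CPM in the M libraries and at 0 to 0.41 CPM in the F libraries. Xist and Ddx3y are sex-linked genes, and each separates the M from the F libraries. Of the cell type markers, 1 of 5 hepatocyte genes (Apoa1) and 1 of 6 Kupffer cell and macrophage genes (Timd4) were called, both lower, and none of 6 endothelial, 6 stellate, 5 red cell or 2 cholangiocyte genes. The 5 hepatocyte markers summed to 29396 to 37905 CPM in Nrf2Act-hep and to 39947 to 48021 CPM in WT, and the 6 Kupffer cell and macrophage markers to 131 to 189 CPM in Nrf2Act-hep and to 163 to 213 CPM in WT. Most of the hepatocyte sum is Alb, at 21586 ± 3748 CPM in Nrf2Act-hep and 29502 ± 2030 CPM in WT (limma adjusted p = 0.080, not called). The log2 fold changes of Ttr, Tat and Serpina1c were -0.13, 0.21 and -0.07, and none of them was called. The part of these differences in the results below was not tested.

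Of the 24 genes tested, 5 rose in Nrf2Act-hep livers and none fell, against a background in which 2.79% of all tested genes rose and 1.86% fell, 4.64% in all (limma with the M or F letter as a covariate, Benjamini-Hochberg adjusted p below 0.05). All 5 are enzymes of the later pathway: Sqle, Lss, Cyp51, Msmo1 and Hsd17b7. Of the enzymes before Sqle, however, Mvk, Mvd, Idi1 and Fdft1 were below the filter and not tested. Among those tested, Fdps had the largest log2 fold change, 1.23 ± 0.44 (SE, adjusted p = 0.16). At an unadjusted p below 0.05 the counts were 9 higher, against 8.43% of all genes, and 1 lower (Lbr), against 7.76%. On the recovered reads, edgeR's quasi-likelihood test called 3 higher, Lss, Cyp51 and Hsd17b7, against 2.69% of all genes, and none lower, against 1.94%. DESeq2 called 6 higher against 2.51% of all genes, limma-voom 2 (Lss and Hsd17b7) against 2.46%, limma without the letter 1 (Lss) against 2.39%, and limma on the deposited scale 7 against 4.76%. The filter asks for 4.50 CPM in 5 of the 10 libraries, so a low gene can pass through the group where it is high, and counts and medians over the 24 are given as a description. The median log2 fold change was 0.54 over the 16 enzymes tested and 0.13 over the 8 sensing and uptake genes, beside 0.0051 over all 8075 genes. In a bulk liver sample, fewer cells of a type and less RNA per cell cannot be told apart, and this holds for every level below.

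**Figure D1:**
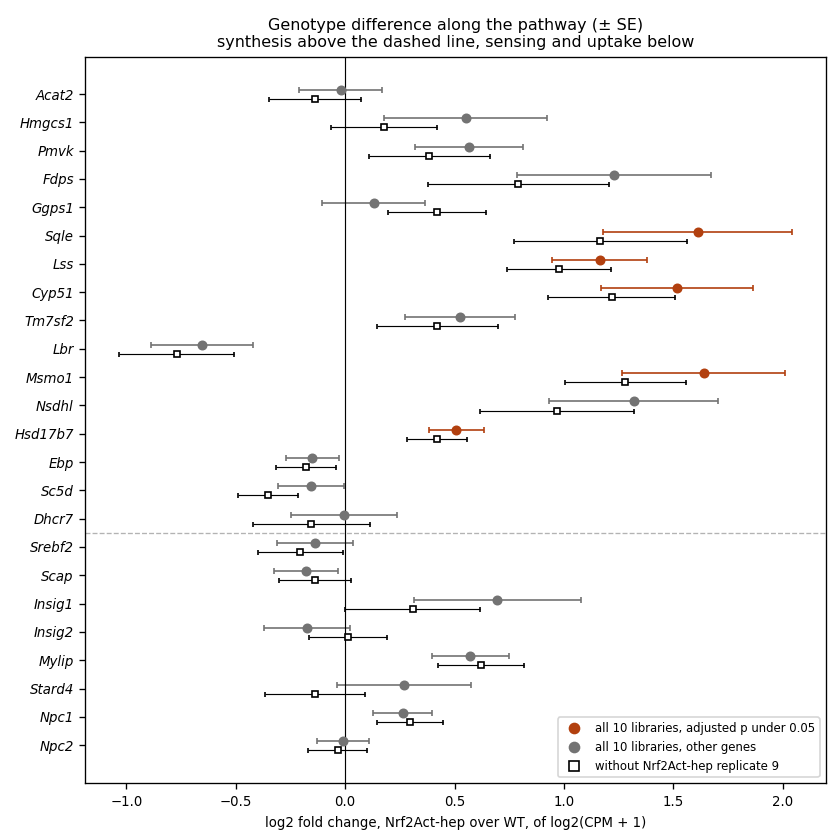
Log2 fold change of Nrf2Act-hep over WT on the log2(CPM + 1) scale, with its SE, for the 24 tested genes in pathway order from top to bottom; circles use all 10 libraries (coloured where the adjusted p is below 0.05) and open squares leave out Nrf2Act-hep replicate 9. The coloured genes are Sqle, Lss, Cyp51, Msmo1 and Hsd17b7, with values from 0.51 to 1.64, and the squares of Hmgcs1, Fdps, Sqle and Insig1 lie closer to 0 than their circles.

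The first enzymes, which make and use mevalonate, gave no call. Acat2, the cytosolic thiolase that joins acetyl-CoA units, averaged 15.9 ± 2.89 CPM in Nrf2Act-hep and 16.1 ± 3.18 CPM in WT (SD, n = 5 each), with a log2 fold change of -0.02 ± 0.19 (SE, adjusted p = 0.97). Its 3′ end is 98.6% identical over 353 bases to that of Acat3, so the authors' counting could have split reads between them. For Hmgcs1, the synthase that adds the next acetyl unit, levels were 106, 93.3, 73.4, 258 and 69.8 CPM in Nrf2Act-hep replicates 6 to 10, against 51.4, 76.99, 110.2, 58.6 and 108 CPM in WT replicates 1 to 5. A single library, Nrf2Act-hep replicate 9, stood above all others, and the other 4 lay inside the WT range. The log2 fold change of Hmgcs1 was 0.55 ± 0.37 (SE, adjusted p = 0.53) with all libraries and 0.18 ± 0.24 (adjusted p = 0.80) without replicate 9.

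Mevalonate kinase, Mvk, was below the level needed for the test, at 2.41 ± 0.956 CPM in Nrf2Act-hep and 2.77 ± 1.61 CPM in WT (exact two-sided permutation p = 0.738, n = 5 each). Pmvk, the next kinase, had 8.09, 8.44, 7.29, 11.4 and 4.93 CPM in Nrf2Act-hep replicates 6 to 10, against 4.05, 5.02, 4.46, 6.39 and 5.35 CPM in WT replicates 1 to 5. In 4 of 5 Nrf2Act-hep libraries Pmvk was above every WT library, replicate 10 being the exception, and its log2 fold change of 0.56 ± 0.25 (SE, adjusted p = 0.25) did not pass the test. Mvd, the decarboxylase that yields isopentenyl diphosphate, had 4.26, 4.02, 4.56, 8.07 and 2.46 CPM in Nrf2Act-hep replicates 6 to 10, against 3.38, 2.51, 1.91, 0 and 0.445 CPM in WT replicates 1 to 5, from 60 reads in Nrf2Act-hep and 12 in WT. Again 4 of 5 Nrf2Act-hep libraries exceeded all WT libraries. The exact permutation test of Mvd, 5 libraries against 5, gave p = 0.024, where 0.0079 is the smallest p such a design allows, and limma with no filter on low levels gave a log2 fold change of 1.14 ± 0.34 (adjusted p = 0.048 over 18869 identifiers, of which 1.61% were called higher).

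Idi1, the isopentenyl diphosphate isomerase, was close to the limit of detection, with 11 reads in the 5 Nrf2Act-hep libraries together and 1 read in the 5 WT libraries (exact permutation p = 0.087). Fdps, the synthase of farnesyl diphosphate, had 7.24, 5.63, 7.75, 21.2 and 4.10 CPM in Nrf2Act-hep replicates 6 to 10, against 0.676, 6.69, 1.91, 5.23 and 3.12 CPM in WT replicates 1 to 5. Replicate 9 held the highest Fdps level, 3 of the 5 Nrf2Act-hep libraries were above every WT library, and the groups overlapped. The log2 fold change of Fdps was 1.23 ± 0.44 (SE, adjusted p = 0.16), and it was called only where Nrf2Act-hep replicate 10 (1.61, adjusted p = 0.045) or WT replicate 2 was left out. Several near-identical gene copies match the 3′ end of Fdps, and others that of Idi1 and Ggps1, so these counts are uncertain.

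Ggps1, which takes farnesyl diphosphate into the geranylgeranyl branch and away from sterols, averaged 11.3 ± 3.86 CPM in Nrf2Act-hep and 9.96 ± 1.90 CPM in WT (SD, n = 5 each), with a log2 fold change of 0.13 ± 0.24 (SE, adjusted p = 0.85). Here replicate 10 was the highest Nrf2Act-hep library and replicate 9 the lowest, at 16.8 and 6.05 CPM. Fdft1, squalene synthase and the first enzyme committed to sterols, averaged 4.55 ± 3.04 CPM in Nrf2Act-hep and 3.69 ± 1.54 CPM in WT, and its exact permutation p was 0.675 (n = 5 each). Its 3′ end overlaps that of Ctsb on the opposite strand, those of Mvd, Lss, Lbr and Npc1 also overlap a gene on the opposite strand, and whether the authors' counting used strand is not given in the sources used here.

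The conversion of squalene to lanosterol held the call with the smallest adjusted p, that of Lss. Sqle, squalene epoxidase (ENSMUSG00000022351, chr15:59315077-59331192 on the plus strand, GRCm38), had 11.1, 8.04, 2.73, 34.6 and 7.80 CPM in Nrf2Act-hep replicates 6 to 10, against 3.38, 0.837, 5.73, 2.32 and 4.45 CPM in WT replicates 1 to 5. Replicate 9 was far above the rest, replicate 8 lay inside the WT range, and the other 3 Nrf2Act-hep libraries were above all WT libraries. Sqle rose by a log2 fold change of 1.61 ± 0.43 (SE, adjusted p = 0.047), but edgeR did not call it (adjusted p = 0.078). Without replicate 9 its log2 fold change was 1.17 (adjusted p = 0.11), and the call was also lost without any 1 of WT replicates 2, 3, 4 and 5 or Nrf2Act-hep replicates 6 and 7, with adjusted p from 0.069 to 0.19. Other fits that did not call Sqle were limma-voom (adjusted p = 0.22), limma without the letter term (adjusted p = 0.23) and limma with a pseudocount of 4 CPM (adjusted p = 0.095). Nor was Sqle called by limma in the M libraries alone (adjusted p = 0.18) or the F libraries alone (adjusted p = 0.17). The same held for edgeR with RLE size factors and edgeR without replicate 9 (adjusted p = 0.13).

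Lss, lanosterol synthase, which folds oxidosqualene into the first sterol (ENSMUSG00000033105, chr10:76531588-76557138 on the plus strand), had 13.6, 12.5, 14.6, 26.2 and 21.8 CPM in Nrf2Act-hep replicates 6 to 10, against 8.11, 9.21, 6.37, 6.39 and 6.68 CPM in WT replicates 1 to 5. Every Nrf2Act-hep library lay above every WT library, which was true, in this direction, of 3.05% of all tested genes. The F libraries, replicates 9 and 10, were the highest, and both were above the M libraries 6 to 8. Lss averaged 17.7 ± 5.98 CPM in Nrf2Act-hep and 7.35 ± 1.26 CPM in WT (SD, n = 5 each) and rose by a log2 fold change of 1.16 ± 0.22 (SE, adjusted p = 0.0016), with an edgeR adjusted p of 0.00031. It was called in each of the 10 fits that left out 1 library, with log2 fold changes from 0.98 to 1.33, and without replicate 9 its adjusted p was 0.016.

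Cyp51, the demethylase that acts first on lanosterol (ENSMUSG00000001467, chr5:4081145-4104746 on the minus strand), had 34.5, 46.6, 32.4, 93.8 and 34.5 CPM in Nrf2Act-hep replicates 6 to 10, against 16.2, 10.9, 31.2, 9.29 and 19.6 CPM in WT replicates 1 to 5. The groups did not overlap, but only narrowly: the lowest Nrf2Act-hep library had 32.4 CPM and WT replicate 3 had 31.2 CPM. Cyp51 averaged 48.4 ± 26.03 CPM in Nrf2Act-hep and 17.4 ± 8.73 CPM in WT and rose by a log2 fold change of 1.52 ± 0.35 (SE, adjusted p = 0.034), which edgeR also called (adjusted p = 0.040). Without replicate 9 the log2 fold change was 1.22 and the adjusted p 0.024; the call was lost without any 1 of WT replicates 1, 2 and 5 or Nrf2Act-hep replicates 6, 7 and 8 (adjusted p 0.062 to 0.13). It was also lost with limma-voom (adjusted p = 0.064), without the letter term (adjusted p = 0.070) and with no level filter (adjusted p = 0.11). Its last bases overlap Akap9 on the opposite strand, at 107 CPM in Nrf2Act-hep and 90.5 CPM in WT, whose reads cannot be told apart if strand was not used.

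The next step, reduction of the new double bond, can be done by either of a pair of related reductases, Tm7sf2 and Lbr, the second of which is also a protein of the inner nuclear membrane. Tm7sf2 averaged 22.1 ± 8.19 CPM in Nrf2Act-hep and 14.9 ± 3.996 CPM in WT, a log2 fold change of 0.52 ± 0.25 (SE, adjusted p = 0.31). An annotated Tm7sf2 transcript shares 279 of its last 500 bases with Vps51, but Vps51 does not overlap the last 500 bases of the Tm7sf2 gene. Lbr had 5.11, 6.03, 4.56, 6.39 and 4.93 CPM in Nrf2Act-hep replicates 6 to 10, against 8.11, 13.4, 9.55, 8.13 and 6.24 CPM in WT replicates 1 to 5. In 4 of 5 Nrf2Act-hep libraries Lbr was below every WT library, with replicate 9 the exception, and its log2 fold change of -0.65 ± 0.23 (SE, adjusted p = 0.13) was the most negative of the 24 and did not pass the test.

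Msmo1, the methylsterol oxidase that begins the removal of the paired methyl groups (ENSMUSG00000031604, chr8:64718139-64733792 on the minus strand), had 48.1, 45.4, 35.1, 117 and 26.7 CPM in Nrf2Act-hep replicates 6 to 10, against 16.2, 7.53, 21.01, 17.4 and 22.3 CPM in WT replicates 1 to 5. All 5 Nrf2Act-hep libraries were above all WT libraries, with replicate 9 far above and replicate 10 the closest to WT. Msmo1 averaged 54.4 ± 35.8 CPM in Nrf2Act-hep and 16.9 ± 5.79 CPM in WT (SD, n = 5 each) and rose by a log2 fold change of 1.64 ± 0.37 (SE, adjusted p = 0.036), while edgeR missed the threshold (adjusted p = 0.055). Without replicate 9 the fold change was smaller, 1.28, and the adjusted p lower, 0.012; without replicate 10 they were 2.08 and 1.2e-06; without any 1 of the other 8 libraries the call was lost (adjusted p 0.066 to 0.11). The Msmo1 call was lost as well with limma-voom (adjusted p = 0.16), without the letter term (adjusted p = 0.087) and with no level filter (adjusted p = 0.12). Neither edgeR with RLE size factors nor limma in the F libraries alone (adjusted p = 0.54) called Msmo1.

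Nsdhl, the decarboxylating dehydrogenase that follows Msmo1, had 14.9, 12.1, 10.02, 29.9 and 8.21 CPM in Nrf2Act-hep replicates 6 to 10, against 7.43, 2.51, 8.91, 2.32 and 7.57 CPM in WT replicates 1 to 5. In 4 of 5 Nrf2Act-hep libraries Nsdhl was above every WT library, with replicate 10 the exception. Its log2 fold change of 1.32 ± 0.39 (SE, adjusted p = 0.079) missed the threshold, was called without replicate 10 (1.64, adjusted p = 0.014) and was 0.97 (adjusted p = 0.15) without replicate 9. DESeq2 (1.46, adjusted p = 0.0086) and limma on the deposited scale (1.43, adjusted p = 0.048) also called Nsdhl. Hsd17b7, the ketoreductase that completes the removal (ENSMUSG00000026675, chr1:169949535-169969241 on the minus strand), had 90.7, 91.7, 80.2, 163 and 117 CPM in Nrf2Act-hep replicates 6 to 10, against 68.9, 51.9, 103, 95.8 and 97.5 CPM in WT replicates 1 to 5. The groups overlapped as a whole but not within a letter: the 3 M Nrf2Act-hep libraries exceeded the M WT libraries 1 and 2, and the F Nrf2Act-hep libraries 9 and 10 exceeded the F WT libraries 3, 4 and 5. Separation in this direction within both letters was seen for 4.57% of all tested genes, and for 4 of the 24, Hsd17b7 with Lss, Cyp51 and Msmo1. Neither letter's own fit called Hsd17b7, with log2 fold changes of 0.54 in M (adjusted p = 0.12) and 0.48 in F (adjusted p = 0.35).

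Hsd17b7 was also higher in F than in M libraries, by 0.68 ± 0.13 on the log2 scale (adjusted p = 0.0045), the only one of the 24 genes called for the letter, against 1.16% of all genes. With the letter in the model it rose by a log2 fold change of 0.51 ± 0.13 (SE, adjusted p = 0.018), and edgeR called it too (adjusted p = 0.016). Without the letter term the adjusted p was 0.44, without replicate 9 it was 0.096, and the call was also lost without WT replicate 2 or Nrf2Act-hep replicate 7.

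The last enzymes gave no call. Ebp, the sterol isomerase, averaged 122 ± 14.7 CPM in Nrf2Act-hep and 137 ± 11.6 CPM in WT, with a log2 fold change of -0.15 ± 0.12 (SE, adjusted p = 0.59). For Sc5d, the desaturase after it, the averages were 129 ± 29.3 CPM in Nrf2Act-hep and 143 ± 24.8 CPM in WT, with a log2 fold change of -0.16 ± 0.15 (SE, adjusted p = 0.67). Dhcr7, the last reductase, averaged 8.29 ± 2.17 CPM in Nrf2Act-hep and 8.57 ± 2.76 CPM in WT, with a log2 fold change of -0.005 ± 0.24 (SE, adjusted p = 1.00). None of the 3 came near the threshold, although Ebp and Sc5d were, with Hmgcs1 and Hsd17b7, the most abundant tags of the pathway.

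**Figure D2:**
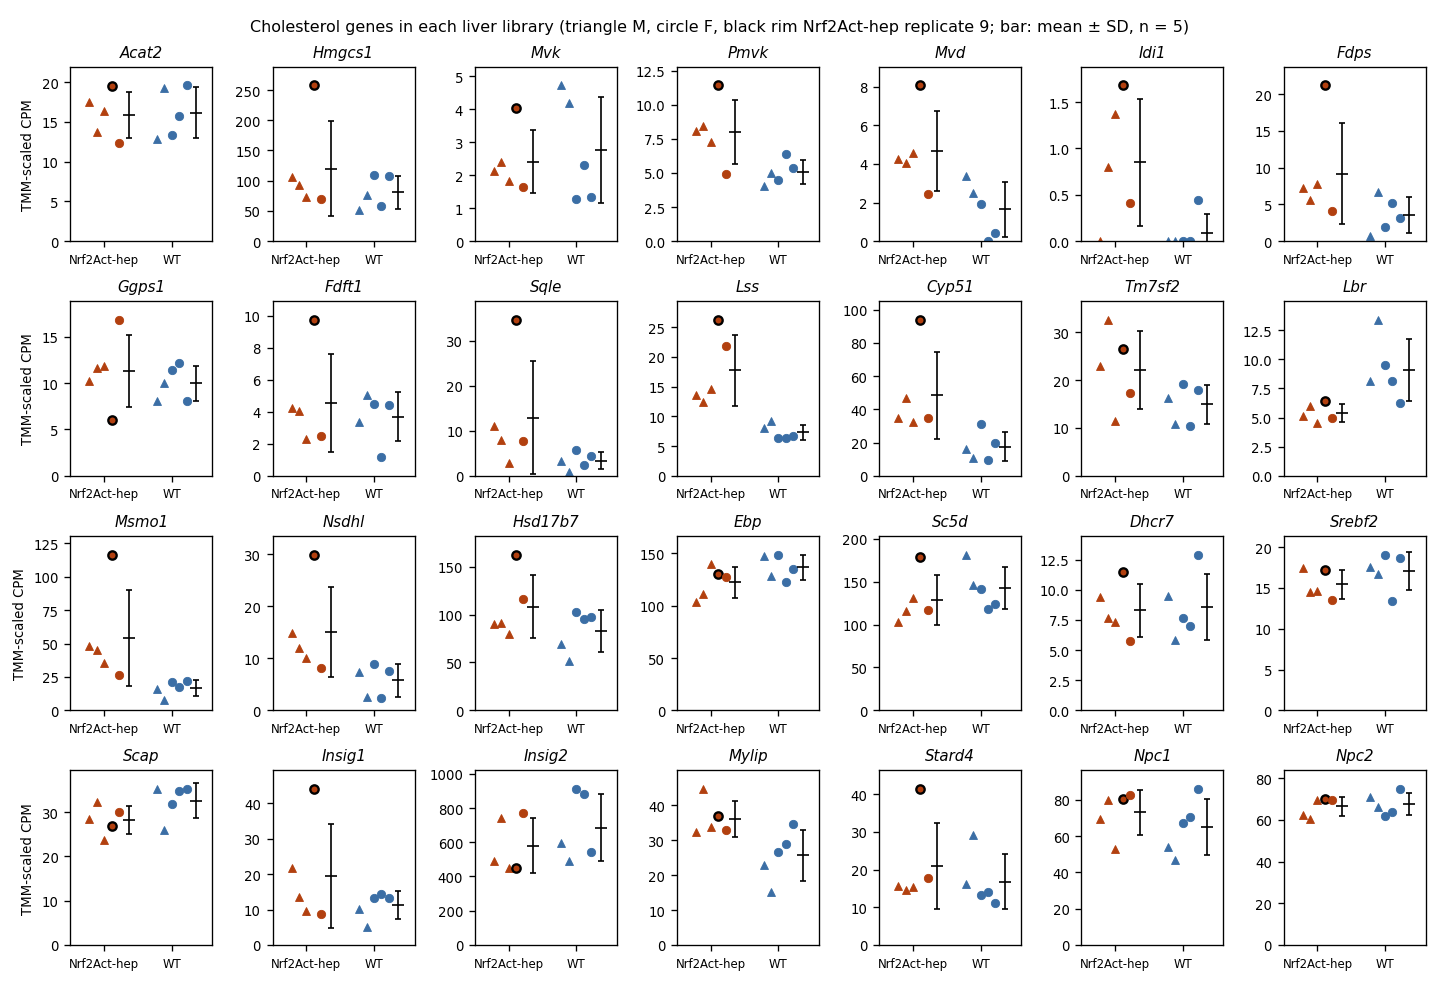
TMM-scaled CPM of all 28 genes in each library, 1 panel per gene in pathway order, Nrf2Act-hep left and WT right, with triangles for M libraries, circles for F libraries, a black rim for Nrf2Act-hep replicate 9, and a bar for the mean and SD of 5 libraries. Replicate 9 is the highest of the 10 libraries in 14 of 28 panels, among them those of Mvd, Idi1 and Fdft1, which were below the filter. Of the 24 tested genes this held for 11, against 6.74% of all tested genes. In the panels of Lss, Cyp51 and Msmo1 no Nrf2Act-hep point lies as low as a WT point.

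Summed over the 20 enzymes, the pathway came to 617, 634, 596, 1157 and 603 CPM in Nrf2Act-hep replicates 6 to 10, against 572, 517, 652, 502 and 605 CPM in WT replicates 1 to 5. Replicate 9 alone was above the WT range of this sum; the other 4 Nrf2Act-hep libraries lay inside it. Its largest contributors are Hmgcs1, Hsd17b7, Ebp and Sc5d, of which Hsd17b7 alone was called.

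Promoters of these enzymes are textbook places to look for the sterol regulatory element that SREBP-2 binds and for the CCAAT box of its partner NF-Y. RefSeq promoter windows (GRCm38.p6, 250 bases before to 50 after the start) were at hand for 23 of the 28 genes and were searched on both strands for letters chosen after the values had been seen. The strict element TCACNCCAC was in 1 of the 23 genes (Hmgcs1), against 1.53% of the 6413 genes that passed the level filter and had a window. A looser form, TCACNNCA, which every strict match contains, was in 10 of 23 genes against 13.3%, and CCAAT was in 21 of 23 against 42.5%. TGACNNNGC, the core of the antioxidant response element that NRF2 binds, was in 4 of 23 (Dhcr7, Hsd17b7, Mvk and Pmvk), against 17.3%. The 250 bases before the start are printed for the called enzymes that had a window, for Hmgcs1 and for the regulator Srebf2. They run 5′ to 3′ along the gene, with every match within them in capitals. The TGACNNNGC match of Hsd17b7 and a further CCAAT match of Hmgcs1 lie just after the start and are not shown. ATTGG is CCAAT read on the other strand, and TGCCGTGA is the looser element read on the other strand.
Hmgcs1, chr13:119690101-119690350, plus strand: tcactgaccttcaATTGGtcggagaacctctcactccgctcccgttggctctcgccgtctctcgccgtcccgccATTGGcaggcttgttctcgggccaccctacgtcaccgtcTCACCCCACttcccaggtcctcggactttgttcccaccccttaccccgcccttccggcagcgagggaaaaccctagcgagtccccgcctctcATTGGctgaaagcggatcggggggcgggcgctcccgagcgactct
Lss, chr10:76531355-76531604, plus strand: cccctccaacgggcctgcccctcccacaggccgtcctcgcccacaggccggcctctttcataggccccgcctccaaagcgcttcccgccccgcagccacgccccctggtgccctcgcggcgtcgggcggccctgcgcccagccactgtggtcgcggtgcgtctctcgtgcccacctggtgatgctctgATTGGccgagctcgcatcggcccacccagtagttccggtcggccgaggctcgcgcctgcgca
Cyp51, chr5:4104698-4104947, minus strand: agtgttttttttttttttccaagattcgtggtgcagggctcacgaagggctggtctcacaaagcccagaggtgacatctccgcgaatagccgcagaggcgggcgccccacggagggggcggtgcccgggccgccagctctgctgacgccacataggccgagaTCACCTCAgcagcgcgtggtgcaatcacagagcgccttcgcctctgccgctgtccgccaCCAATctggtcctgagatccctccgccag
Msmo1, chr8:64733579-64733828, minus strand: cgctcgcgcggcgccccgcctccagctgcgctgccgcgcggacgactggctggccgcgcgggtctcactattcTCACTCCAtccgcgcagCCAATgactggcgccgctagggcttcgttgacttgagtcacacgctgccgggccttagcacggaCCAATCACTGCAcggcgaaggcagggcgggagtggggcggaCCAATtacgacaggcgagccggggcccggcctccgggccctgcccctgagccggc
Hsd17b7, chr1:169969206-169969455, minus strand: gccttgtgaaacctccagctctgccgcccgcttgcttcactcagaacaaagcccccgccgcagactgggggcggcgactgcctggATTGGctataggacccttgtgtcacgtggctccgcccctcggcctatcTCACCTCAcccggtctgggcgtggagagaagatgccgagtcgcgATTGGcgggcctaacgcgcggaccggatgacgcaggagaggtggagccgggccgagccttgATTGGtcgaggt
Srebf2, chr15:82147019-82147268, plus strand: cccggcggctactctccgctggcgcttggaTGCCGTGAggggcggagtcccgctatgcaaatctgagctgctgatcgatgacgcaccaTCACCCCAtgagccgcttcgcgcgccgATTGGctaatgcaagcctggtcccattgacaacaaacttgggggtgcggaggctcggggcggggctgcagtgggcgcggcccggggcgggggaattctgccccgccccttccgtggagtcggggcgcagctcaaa

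Of the called enzymes shown, Cyp51, Msmo1 and Hsd17b7 hold the looser element and Lss holds only a CCAAT box. In Msmo1 the second looser element shares 1 base with a CCAAT box. Srebf2, which was not called, holds the looser element as well, in both orientations. A match is a run of letters and not evidence of binding, and a window without one says nothing of the factor.

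None of the 4 genes of the sensing machinery was called. Srebf2, which encodes SREBP-2, had 17.5, 14.5, 14.6, 17.1 and 13.5 CPM in Nrf2Act-hep replicates 6 to 10, against 17.6, 16.7, 19.1, 13.4 and 18.7 CPM in WT replicates 1 to 5. Nrf2Act-hep libraries lay wholly within the WT range, and the log2 fold change was -0.14 ± 0.17 (SE, adjusted p = 0.76). Scap, the escort and sterol sensor, had 28.5, 32.2, 23.7, 26.9 and 29.96 CPM in Nrf2Act-hep replicates 6 to 10, against 35.1, 25.9, 31.8, 34.8 and 35.2 CPM in WT replicates 1 to 5. Here the groups overlapped and the log2 fold change was -0.18 ± 0.15 (SE, adjusted p = 0.60).

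Insig1, an anchor that holds SCAP in the endoplasmic reticulum and is itself a target of SREBP-2, had 21.7, 13.7, 9.57, 44.05 and 8.62 CPM in Nrf2Act-hep replicates 6 to 10, against 10.1, 5.02, 13.4, 14.5 and 13.4 CPM in WT replicates 1 to 5. As with Hmgcs1, replicate 9 stood apart; replicate 6 was the only other Nrf2Act-hep library above the WT range. The log2 fold change of Insig1 was 0.70 ± 0.38 (SE, adjusted p = 0.40) with all libraries, 0.31 (adjusted p = 0.70) without replicate 9 and 1.17 (adjusted p = 0.010) without replicate 10, the 1 setting that called it. Insig2, a second anchor that in mouse liver has a transcript known to rise with fasting, had 493, 739, 448, 451 and 772 CPM in Nrf2Act-hep replicates 6 to 10, against 596, 490.4, 911, 884 and 545 CPM in WT replicates 1 to 5. Its groups overlapped broadly, its log2 fold change was -0.17 ± 0.20 (SE, adjusted p = 0.73), and it was by far the most abundant of the 28 genes.

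Of the genes of uptake and transport none was called. Mylip, a ubiquitin ligase that sends lipoprotein receptors to degradation, had 32.4, 44.6, 33.7, 36.99 and 32.8 CPM in Nrf2Act-hep replicates 6 to 10, against 22.98, 15.1, 26.7, 29.03 and 34.7 CPM in WT replicates 1 to 5. The highest WT library, replicate 5, exceeded 3 of the 5 Nrf2Act-hep libraries. Its log2 fold change of 0.57 ± 0.17 (SE, adjusted p = 0.066) missed the threshold and was called without replicate 10 (0.69, adjusted p = 0.048), without WT replicate 5, with no filter on low levels, on the deposited scale and in the M libraries alone.

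Npc1 and Npc2 hand cholesterol out of the lysosome. Npc1 averaged 73.1 ± 12.4 CPM in Nrf2Act-hep and 65.05 ± 15.2 CPM in WT, a log2 fold change of 0.26 ± 0.13 (SE, adjusted p = 0.34). Npc2 averaged 66.6 ± 4.59 CPM in Nrf2Act-hep and 67.5 ± 5.33 CPM in WT (SD, n = 5 each), a log2 fold change of -0.01 ± 0.12 (SE, adjusted p = 0.98). Stard4, a carrier of cholesterol between membranes, had 15.8, 14.5, 15.5, 41.4 and 17.7 CPM in Nrf2Act-hep replicates 6 to 10, against 16.2, 29.3, 13.4, 13.9 and 11.1 CPM in WT replicates 1 to 5. Replicate 9 was the highest and WT replicate 2 the second, and the log2 fold change over all libraries was 0.27 ± 0.31 (SE, adjusted p = 0.73).

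The libraries of Nrf2Act-hep replicates 9 and 10 share genotype and letter, yet they differed for many of these genes. Replicate 9 gave the highest of the 10 values for 11 of the 24 tested genes (9 of 16 enzymes), whereas it did so for 6.74% of all tested genes. It was at least 2 times replicate 10 for 9 of 24, against 3.43% of all tested genes. The ratio of replicate 9 to replicate 10 was 5.16 (2.63 to 11.3) for Fdps, 5.11 (3.21 to 8.53) for Insig1 and 4.44 (2.70 to 7.67) for Sqle, with 95% exact intervals that cover counting error only. Next came Msmo1 at 4.37 (3.35 to 5.79), Hmgcs1 at 3.70 (3.13 to 4.39), Nsdhl at 3.65 (2.23 to 6.25) and Cyp51 at 2.72 (2.12 to 3.52). Stard4 was at 2.34 (1.64 to 3.40) and Pmvk at 2.32 (1.17 to 4.92). By contrast Lss was at 1.21 (0.84 to 1.74) and Srebf2 at 1.27 (0.801 to 2.03), intervals that include 1, while Insig2 and Ggps1 ran the other way, at 0.584 (0.544 to 0.626) and 0.36 (0.194 to 0.64). The median ratio was 1.53 over the 24 tested genes of the pathway and 1.00 over all tested genes. What differed between these libraries is not given in the labels, and its part in the genotype result was not tested beyond the fits without each of them.

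Without replicate 9, 3 of the 24 genes were called higher, Lss, Cyp51 and Msmo1, against 2.33% of all genes, and edgeR without it called the same 3 (background 2.37%). Without replicate 10, 9 of the 24 were called higher, with Fdps, Nsdhl, Insig1 and Mylip added to the 5, against 2.17% of all genes. The median log2 fold change of the enzymes was 0.42 without replicate 9.

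**Figure D3:**
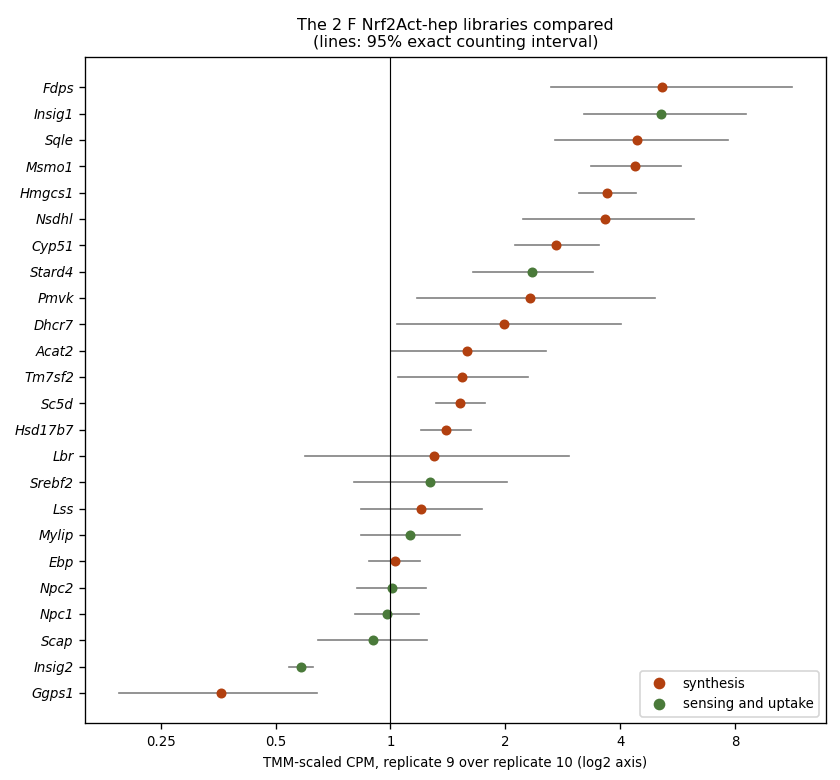
Ratio of TMM-scaled CPM in Nrf2Act-hep replicate 9 to that in replicate 10, on a log2 axis, for the 24 tested genes in order of the ratio, with 95% exact counting intervals; enzymes and genes of sensing and uptake have different colours. Fdps, Insig1, Sqle, Msmo1, Hmgcs1 and Nsdhl have ratios from 3.65 to 5.16, and Ggps1 and Insig2 have the lowest ratios.

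Fitted apart, the M libraries (3 Nrf2Act-hep, 2 WT) called 3 of the 24 genes higher, Cyp51, Msmo1 and Mylip, against 2.01% of all genes, and the F libraries (2 Nrf2Act-hep, 3 WT) called 1, Lss, against 1.02%. Log2 fold changes above 0 were seen for 17 of 24 genes in M and 16 of 24 in F. Over all tested genes they were seen for 4005 of 8075 in M and 4105 of 8075 in F. Cyp51 had 1.42 ± 0.24 in M (adjusted p = 0.00093) and 1.61 ± 0.65 in F (adjusted p = 0.50), close fold changes with a larger SE in F. Lss had 0.59 ± 0.27 in M (adjusted p = 0.30) and 1.73 ± 0.27 in F (adjusted p = 0.0020).

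The interaction, which tests whether the genotype difference is unequal between F and M, was called for none of the 24 genes by limma or edgeR, against 0.0248% of all genes. Unadjusted, limma's p was below 0.05 for 4 genes: Lss, Sc5d, Mylip and Stard4, against 7.13% of all genes. For Lss the F minus M difference in fold change was 1.14 ± 0.36 (adjusted p = 0.46), and for Mylip it was -0.73 ± 0.32 (adjusted p = 0.65). Stard4 was the clearest case in the raw values. Its 3 M Nrf2Act-hep libraries were below both M WT libraries and its 2 F Nrf2Act-hep libraries above all 3 F WT libraries, a separation in opposite directions that 2.09% of all tested genes had. The Stard4 difference was 1.52 ± 0.43 (adjusted p = 0.37), and it was called only without replicate 10 (2.11, adjusted p = 0.048), while without replicate 9 it was 0.92 (adjusted p = 0.68).

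**Figure D4:**
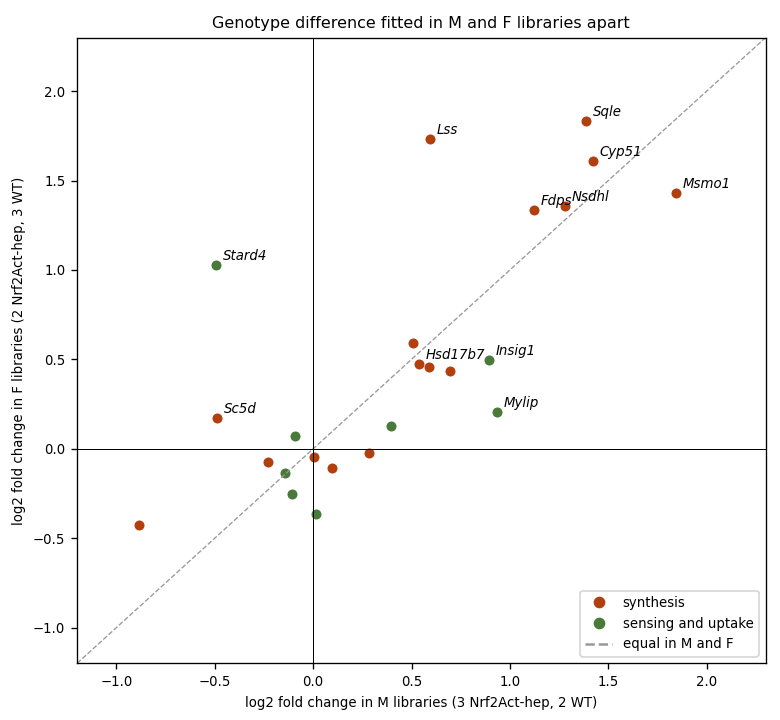
Log2 fold change of Nrf2Act-hep over WT in F libraries (vertical) against M libraries (horizontal), on the log2(CPM + 1) scale, for the 24 tested genes, with a dashed line where both are equal. Msmo1, Cyp51, Sqle, Nsdhl and Fdps lie above 1 on both axes, Lss is higher in F, and Stard4 is below 0 in M and above 0 in F.

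Neighbouring pathways gave few calls, to be read against the 4.64% of all genes called in either direction. Of 10 tested genes of the isoprenoid branches, which lead to dolichol, ubiquinone and prenylated proteins, none was called (unadjusted p below 0.05 for 2, Dhdds higher and Pdss2 lower; none by edgeR). The most abundant of them, Rabggtb, a subunit of the Rab prenyltransferase, averaged 47.7 ± 4.50 CPM in Nrf2Act-hep and 40.8 ± 6.61 CPM in WT, and Nus1, a subunit of the dolichol-making enzyme, 43.7 ± 7.59 CPM in Nrf2Act-hep and 39.3 ± 4.85 CPM in WT. Of 16 genes that process SREBPs or degrade pathway proteins on sterol signals, Sec24d, a cargo adaptor of the COPII coat that buds vesicles from the endoplasmic reticulum, was higher, averaging 82.9 ± 7.48 CPM in Nrf2Act-hep and 54.8 ± 10.1 CPM in WT, a log2 fold change of 0.59 ± 0.14 (SE, adjusted p = 0.012), and no other was called. The Sec24d call was kept in every fit that left out 1 library (adjusted p up to 0.0498) and lost in the M libraries alone (0.55, adjusted p = 0.11) and the F libraries alone (0.64, adjusted p = 0.23).

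Of 6 genes that supply electrons to the sterol enzymes or bind sterols, Pgrmc1, a haem-binding membrane protein that associates with cytochromes P450, was called alone. Its levels were 330.3, 363, 327, 353 and 249 CPM in Nrf2Act-hep replicates 6 to 10, against 174, 164, 162, 164 and 165 CPM in WT replicates 1 to 5. The groups did not overlap, and the highest library was Nrf2Act-hep replicate 7 and not replicate 9. Pgrmc1 rose by a log2 fold change of 0.93 ± 0.12 (SE, adjusted p = 1.5e-05) and was called in every fit that left out 1 library.

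Among 19 tested genes of efflux, esterification, storage and lysosomal release, 1 rose and 1 fell. Abcg5, a subunit of the transporter that moves sterols into bile, averaged 45.7 ± 11.96 CPM in Nrf2Act-hep and 27.7 ± 7.96 CPM in WT, with a log2 fold change of 0.68 ± 0.19 (SE, adjusted p = 0.047), and the call was lost in 7 of the 10 fits that left out 1 library and in the M libraries alone (adjusted p = 0.81). Its partner subunit Abcg8 averaged 45.96 ± 12.1 CPM in Nrf2Act-hep and 32.9 ± 6.64 CPM in WT, with a log2 fold change of 0.45 ± 0.17 (SE, adjusted p = 0.17). Scarb1, the receptor for high-density lipoprotein, averaged 29.6 ± 8.13 CPM in Nrf2Act-hep and 48.2 ± 8.80 CPM in WT, with a log2 fold change of -0.77 ± 0.17 (SE, adjusted p = 0.0090), and missed the threshold without replicate 10 (adjusted p = 0.058) and in each letter alone (adjusted p up to 0.15). Of 11 tested genes of SREBP-1 and fatty acid synthesis none was called (unadjusted p below 0.05 for 1 higher and 2 lower; none by edgeR), and their median log2 fold change was -0.19. Scd1, the stearoyl-CoA desaturase and the most abundant of them, averaged 115 ± 44.6 CPM in Nrf2Act-hep and 196 ± 97.2 CPM in WT and Fads1, a desaturase of polyunsaturated fatty acids, 70.6 ± 23.5 CPM in Nrf2Act-hep and 88.6 ± 18.9 CPM in WT.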

How the data were processed

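Liver RNA of 5 Nrf2Act-hep and 5 WT libraries was made into 3′ tag libraries (QuantSeq FWD) and read as single reads of 75 bases, per the labels' protocols. The authors deposited 1 table of CPM values for 18869 gene identifiers, of which 18799 had a symbol in GENCODE gene models on GRCm38, the build named in the submitters' processing notes. Which aligner, counter and annotation were used, and whether strand was, is not given in the sources used here. All columns have the same sum, and 100% of the values are whole multiples of the worth of 1 read within 0.01 read, so the reads were recovered. They came to 2167528 to 2806670 per Nrf2Act-hep library and 1267745 to 2287727 per WT library. Intervals cover counting error only, since tags are reads and not molecules.

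Values are CPM scaled by TMM (edgeR 4.0.16). Genes with at least 10 reads at the median depth (4.50 CPM) in at least 5 libraries and 15 reads in all were tested, 8075 in number. The test was limma 3.58.1 (R 4.3.3) with a variance trend and robust moderation on log2(CPM + 1), with the M or F letter as a covariate and Benjamini-Hochberg adjustment over all 8075 genes at 0.05. A fold change on that scale understates the change of low genes. Genes below the filter had an exact two-sided permutation test. The edgeR quasi-likelihood test on the recovered reads called 374 genes, against 375 for limma. Other alternatives were DESeq2 1.42.0, limma-voom, RLE size factors, no TMM scaling, scaling without the 10 most abundant genes, pseudocounts of 0.5 and 4, other filters, no letter term, each letter alone and each library left out. The fit of edgeR without Nrf2Act-hep replicate 9 was chosen after seeing the data.

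The 28 genes, the neighbouring lists, the markers and the tests were chosen with earlier results of these data known. Every one of the 28 genes is accounted for. Values in every library are given for those called by limma or edgeR, for Srebf2, Scap, Insig1 and Insig2, and for others chosen after their values were seen. From each neighbouring list the text names up to 4 called genes, or the 2 with the highest mean where none was called; Dhdds, Pdss2 and Abcg8 were named after their values were seen. Overlapping genes and copies with at least 95% identity over at least 75 of the last 500 transcript bases were looked up in the GENCODE models, and promoter windows came from RefSeq. No 2 libraries of a group were near-identical: correlations were 0.943 to 0.972 within Nrf2Act-hep and 0.928 to 0.962 within WT.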

Additional observations from a re-analysis of the deposited data

Results flagged for a closer look

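In each group of 5 libraries, the gap between the highest or lowest library and its nearest neighbour was divided by the group's range and set against Dixon's critical value of 0.71. Over the 28 genes and both groups, 56 groups in all, 9 passed. Chance alone passes about 5% of groups when values are normally distributed, which CPM values from few reads are not. The share over all genes was not computed, so the 9 are given as a description. In 7 of the 9 the library that stood apart was Nrf2Act-hep replicate 9, which was the highest. The ratio was 0.8819 for Stard4, 0.8075 for Hmgcs1, 0.7868 for Fdps, 0.7675 for Cyp51, 0.762 for Msmo1, 0.7387 for Sqle and 0.7352 for Fdft1. The genes share libraries, so these are not independent counts. In WT, replicate 2 stood above the others for Stard4 (0.7201). Replicate 5 was the only WT library with an Idi1 read, so 1 read fixed that ratio at 1. Causes were not tested.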

How the results depend on the processing

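The count of listed genes called higher, 5 in the main test, was 3 with edgeR under TMM or RLE, 3 with edgeR without Nrf2Act-hep replicate 9, 2 with limma-voom, 1 without the letter term, 3 in M libraries, 1 in F libraries, and 1 to 9 when 1 library was left out. It was 4 to 7 under the other settings, and none was called lower in any. With no filter the 5 were Mvd, Sqle, Lss, Hsd17b7 and Mylip. The interaction count ranged from 0 to 1 when 1 library was left out, and the count over neighbouring lists, 4, was 8 on the deposited scale and 2 to 5 when 1 library was left out. With no TMM scaling, all genes together had a median log2 fold change of 0.13 and the enzymes one of 0.66, and 384 genes were called higher and 80 lower, against 225 and 150 with TMM. Over all genes the count called was 130 in F libraries and 245 to 464 elsewhere.

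Of the genes not called in the main test, some log2 fold changes changed sign. Acat2 was at 0.10 on the deposited scale, 0.021 with no filter, 0.0021 in M libraries and -0.14 to 0.10 when 1 library was left out. Dhcr7 was at 0.11, 0.034 and 0.096 under the same 3 settings, 0.0036 with a filter of 1 CPM and -0.15 to 0.19 with 1 library left out. Npc2 was at 0.12 on the deposited scale, 0.033 with no filter, 0.069 in F libraries and -0.042 to 0.028 with 1 library left out. Ggps1 was at -0.026 in F libraries and -0.094 to 0.42 with 1 library left out, and Sc5d at 0.17 in F libraries. Insig2 was at 0.016 in M libraries, 0.014 without replicate 9 and 0.017 in edgeR without it, and ranged from -0.30 to 0.014 when 1 library was left out. Stard4 was at -0.49, -0.14 and -0.14 under those 3 settings and -0.14 to 0.60 when 1 library was left out. The cause was not tested. No paired analysis was possible because the replicate numbers run from 1 to 10 with none shared between the groups. Low depth limits Mvk, Mvd, Idi1 and Fdft1.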
